A study of Drosophila melanogaster with 12 samples.

Results

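The genes described here encode structural proteins of the insect cuticle, and they were followed in eye discs of late Drosophila larvae of 4 genotypes. They are the genes whose symbol starts with Cpr and a digit, Twdl, Lcp or Ccp84 in the platform annotation, and where a gene had several probe sets the one with the highest average signal stood for it. The selection gave 100 of the 11982 genes that had a probe set of their own: 66 Cpr genes, 24 Twdl genes, 7 Lcp genes and 3 Ccp84 genes. A current gene table holds 117 genes with such symbols, and the other 17 had no probe set of their own and were not analysed here. The 6 probe sets listed for several genes at once were left out, since copies of these genes can be nearly identical.

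Eye discs are the epithelial sacs of the larva that form the adult eye, and RNA of each sample was measured on 1 Affymetrix array. The 4 groups had 3 arrays each, labelled as biological replicates. Canton S is a widely used wild-type strain. The second group carried rbf120a, an Rbf allele (Rbf is a retinoblastoma family gene); the third carried wtsX1Lats, an allele of the Hippo pathway kinase gene warts; and the last carried both and is called the double mutant here. Rbf restrains E2F transcription factors and warts restrains the growth co-activator Yorkie, and the design sets each mutant state and their combination beside the wild type. Mutant discs were mosaics that the submitters describe as consisting mainly of mutant cells, so some wild-type tissue remained. How the mosaics were made, the number of discs per sample and the sex of the larvae are not given in the sources used here, and the alleles cannot be told apart from other differences between Canton S and the mutant stocks. The p-values measure the spread between these samples only.

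Cuticle is a layered extracellular material that epidermal cells secrete at their apical side, built from chitin fibres and chitin-binding proteins. Cpr, Lcp and Ccp84 proteins belong to a family that binds chitin through the Rebers and Riddiford domain, and the insect-specific Tweedle proteins form a second family of cuticle proteins. Different members are made at different moults and body regions under control of ecdysone pulses, and the discs themselves lay down pupal and adult cuticle, including the corneal lens of the eye, only after the larval stage.

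Values are log2 signals, on which a change of 1 is a factor of 2. The signal of a probe set also depends on its sequence, so levels are ordered here to describe the arrays and not to compare RNA amounts between genes. Array medians over all probe sets lay between 5.76 and 5.86. The 10 eye disc markers, among them ey, so, eya and gl, had a mean signal per array of 8.97 to 10.16, above the median gene at 7.44. Of these markers 0 fell in rbf120a, 4 fell in wtsX1Lats, and 4 fell and 1 rose in the double mutant, and of 5 brain and glia markers 0, 2 and 4 fell, beside 1.71%, 3.33% and 3.26% of all genes falling and 2.23% rising in the double mutant. The 3 prime to 5 prime log2 differences of the actin, eIF-4A and GAPDH control probe sets were 1.70, 1.90 and 1.81 on wtsX1Lats replicate 3, against at most 0.82, 0.95 and 1.43 on the other 11 arrays. In such tissue samples, fewer cells of a type and less RNA per cell cannot be told apart.

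Most cuticle protein genes gave low and flat signals in these discs. Their mean over the 12 arrays ran from 4.05 to 12.78 with a median of 5.48, and 16 of 100 reached the median gene. Those 16 were 11 Cpr genes, 2 Twdl genes and 3 Lcp genes; no Ccp84 gene did. The signal stayed within a range of less than 1 over all 12 arrays for 73 members, and 79.9% of all genes did so. Of the 84 members below the median gene, 71 had such a flat signal. A range of at least 2 was seen for 13 members and for 3.71% of all genes. The plot of level against range shows a dense group of dim, flat genes and a small number of members that stand above it.

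**Figure D1:**
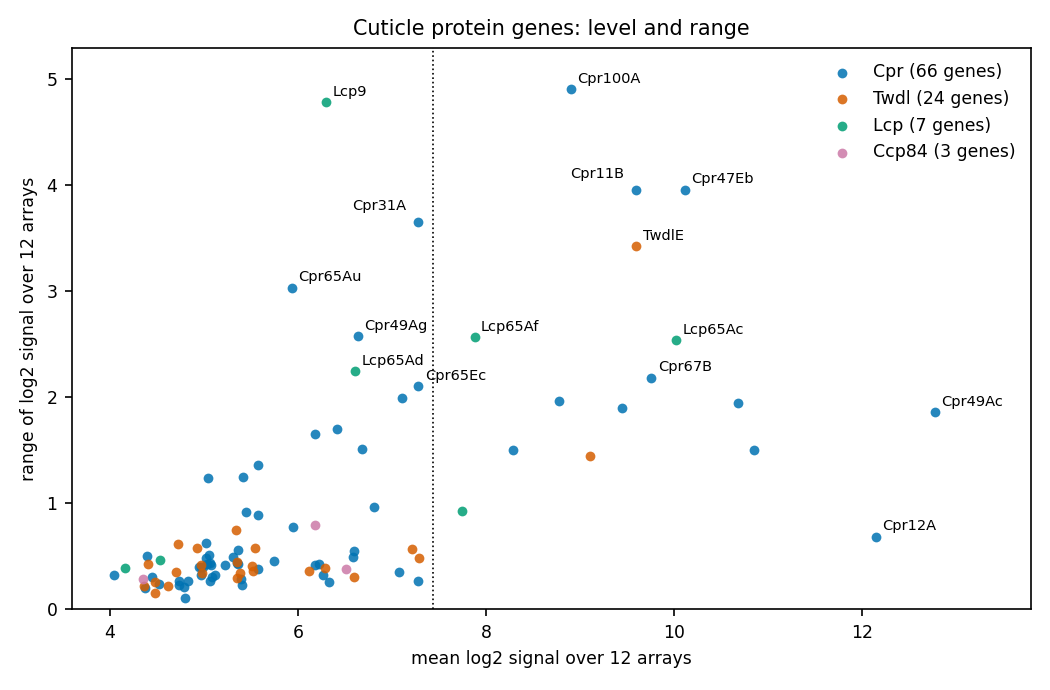
Mean log2 signal over the 12 arrays (x axis) and the range of log2 signal over the same arrays (y axis), 1 point per cuticle protein gene, coloured by family; the dotted line marks the median gene at 7.44. Most points lie at low signal with a range under 1, and members with a range of at least 2 or a mean above 12 are named.

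The highest signals came from Cpr49Ac, Cpr12A and Cpr51A. Cpr49Ac (CG8502, arm 2R) averaged 12.65 ± 0.60 (SD, n = 3) in Canton S and 13.37 ± 0.17 in rbf120a, with wtsX1Lats at 12.29 ± 0.55 and the double mutant at 12.79 ± 0.16, and none of its changes passed the test. Cpr12A (CG15757, X chromosome) was the steadiest of the bright members, with all 12 arrays between 11.81 and 12.49. Its changes against Canton S were 0.06 ± 0.17 (SE) in rbf120a, then -0.20 ± 0.17 in wtsX1Lats, and -0.11 ± 0.17 with both alleles.

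Against Canton S, 12 of the 100 members changed in at least 1 mutant group, which is 12% of the members beside 8.4% of all genes. A change counted when the adjusted p of limma's test, fitted over all 11982 genes and 12 arrays, was under 0.05. Of the 12 members, 8 were lower and 4 higher. In rbf120a 2 members rose and 4 fell, that is 6 of 100 beside 3.51% of all genes (1.79% rising and 1.71% falling). In wtsX1Lats 3 rose and 3 fell, 6 of 100 beside 5.61% (2.28% rising, 3.33% falling). In the double mutant 1 rose and 6 fell, 7 of 100 beside 5.49% (2.23% rising, 3.26% falling). The median change over the members was -0.01, 0.02 and 0.00 in the 3 comparisons, and that of all genes 0.00, 0.02 and 0.00. With array medians centred the split was 1 rise to 4 falls in rbf120a. Quantile normalization of the 11982 tested genes alone gave 2 rises to 5 falls in the double mutant. Quantile normalization of all probe sets, used for single genes below, ended none of the 6 falls there. It added the fall of Lcp65Af (adjusted p = 0.038). These comparisons share the Canton S arrays and are therefore not independent of each other.

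Members whose arrays did not overlap those of Canton S numbered 15 in each single mutant and 22 in the double mutant, beside 20.6%, 20% and 27.6% of all genes. Between the double mutant and rbf120a 23 members did not overlap (23.3% of all genes), and between the double mutant and wtsX1Lats 12 (14.2%). Only Cpr47Eb and Cpr78E changed in all 3 comparisons with Canton S, 2 of 100 beside 1.84% of all genes. Another 3 members changed in 2 comparisons and 7 in 1 comparison. Of the 19 calls against Canton S, 13 held when any 1 of the 12 arrays was left out.

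Cpr47Eb (CG13224, arm 2R) gave the largest fall among the members in each of the 3 comparisons. In replicates 1, 2 and 3 its signal was 12.67, 12.89 and 11.38 in Canton S, against 9.31, 9.52 and 10.03 in rbf120a. The wtsX1Lats arrays read 9.25, 9.45 and 9.29 and the double-mutant arrays 9.43, 8.93 and 9.31. All 9 mutant arrays lay below all 3 Canton S arrays, and the mutant groups overlapped each other. The changes were -2.69 ± 0.32 (SE; 6.45-fold lower, adjusted p = 0.000686) in rbf120a, -2.98 ± 0.32 (7.89-fold lower, adjusted p = 0.000286) in wtsX1Lats and -3.09 ± 0.32 (8.51-fold lower, adjusted p = 0.000201) in the double mutant. These calls held with any array left out.

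The additivity of the mutant changes was tested for Cpr47Eb as for all genes. Its mean signal was 12.31 in Canton S and 9.33 in wtsX1Lats. The allele rbf120a changed it by -2.69 in the Canton S background and by -0.11 (95% interval -0.82 to 0.60) in the wtsX1Lats background. The difference between these changes, the interaction, was 2.58 ± 0.46 (SE; adjusted p = 0.0236). That call ended when Canton S replicate 1, rbf120a replicate 1 or 2, or double-mutant replicate 1 or 3 was left out (adjusted p 0.0654 to 0.0714), and with the replicate number as a block (adjusted p = 0.0508). Some eye disc and brain and glia markers fell in the groups with wtsX1Lats, as given above. Of 8 blood cell markers, 5 fell in rbf120a, 4 in the double mutant and 3 in wtsX1Lats, beside 1.71%, 3.26% and 3.33% of all genes. For rbf120a the median change of these markers was -1.75, beside -0.87 for wtsX1Lats and -1.18 for the double mutant. A positive interaction was called for 3 of the 8 markers, beside 0.492% of all genes. The median interaction over all 8 markers was 1.63. Their mean signal was 8.92, 9.22 and 8.32 in Canton S replicates 1, 2 and 3, and 7.35 to 7.54 in rbf120a, 7.49 to 7.92 in wtsX1Lats and 7.36 to 8.09 in the double mutant. The part of blood cells in the Cpr47Eb signal was not tested.

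Cpr78E (CG7160, arm 3L) was the other member that fell in every mutant group. Its signal was 10.66, 10.39 and 10.33 in Canton S, against 9.55, 9.29 and 8.80 in rbf120a, with wtsX1Lats at 9.21, 9.24 and 9.51 and the double mutant at 8.89, 8.79 and 8.76. All 9 mutant arrays again lay below Canton S, with the double-mutant arrays at or near the bottom. The changes were -1.24 ± 0.18 (SE; adjusted p = 0.00179), -1.13 ± 0.18 (adjusted p = 0.00318) and -1.65 ± 0.18 (3.13-fold lower, adjusted p = 0.000219), and all 3 held with any array left out. The double mutant differed from rbf120a by -0.40 (95% interval -0.79 to -0.02) and from wtsX1Lats by -0.51 (-0.90 to -0.13), neither past the adjusted threshold (adjusted p = 0.56 and 0.496).

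TwdlE (CG14534, arm 2L), the brightest Tweedle gene, was higher in the groups that carried the warts allele. It stood at 8.52, 8.27 and 8.72 in Canton S, against 8.76, 8.0 and 8.81 in rbf120a. In wtsX1Lats it was at 10.42, 11.43 and 9.60, and in the double mutant at 11.07, 10.81 and 10.79. The 6 arrays with wtsX1Lats all lay above the other 6, and the 3 wtsX1Lats arrays were spread more widely than the 3 of the double mutant.

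TwdlE rose by 1.98 ± 0.36 (SE; 3.94-fold, adjusted p = 0.00807) in wtsX1Lats and by 2.39 ± 0.36 (5.23-fold, adjusted p = 0.00259) in the double mutant. Fitted on the Canton S and wtsX1Lats arrays alone, the former had an adjusted p of 0.0559. The change in rbf120a was 0.02 ± 0.36 (95% interval -0.77 to 0.82). It was the 1 member called between the double mutant and rbf120a (1 of 100 beside 0.676% of all genes, 0.342% higher and 0.334% lower), 2.36 ± 0.36 higher in the double mutant (adjusted p = 0.0108). Leaving out rbf120a replicate 2 or double-mutant replicate 1 or 3 ended that call (adjusted p 0.0522 to 0.0553). Between the double mutant and wtsX1Lats it differed by 0.41 (95% interval -0.39 to 1.20), and its interaction was 0.38 ± 0.51 (adjusted p = 0.852).

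Cpr65Ec (CG8634, arm 3L) was higher in both single mutants than in the wild type. Its signal was 6.48, 6.20 and 7.06 in Canton S, against 7.92, 8.31 and 7.72 in rbf120a. The wtsX1Lats arrays read 7.66, 7.36 and 7.62, beside 6.93, 7.40 and 6.72 in the double mutant. Both single mutants lay above Canton S without overlap, while the double mutant overlapped Canton S.

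Cpr65Ec rose by 1.40 ± 0.24 (SE; 2.64-fold, adjusted p = 0.00642) in rbf120a and by 0.96 ± 0.24 (1.95-fold, adjusted p = 0.0365) in wtsX1Lats. The double mutant differed from Canton S by 0.44 ± 0.24 (adjusted p = 0.425). Its interaction was -1.93 ± 0.34 (adjusted p = 0.0215): rbf120a changed the signal by 1.40 in the Canton S background and by -0.52 (95% interval -1.04 to 0.00) in the wtsX1Lats background. The interaction ended as a call without Canton S replicate 1, rbf120a replicate 1 or 2, or double-mutant replicate 1 or 3 (adjusted p 0.0561 to 0.0695), and with the replicate number as a block (adjusted p = 0.0515). The call in wtsX1Lats ended without Canton S replicate 1 or 2 or replicate 1 of any mutant group (adjusted p 0.0535 to 0.128), with the replicate block (0.0633) and with the 2 groups fitted alone (0.106). Cpr47Eb and Cpr65Ec were the 2 members with a called interaction, 2 of 100 beside 0.893% of all genes (0.492% positive and 0.401% negative).

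**Figure D2:**
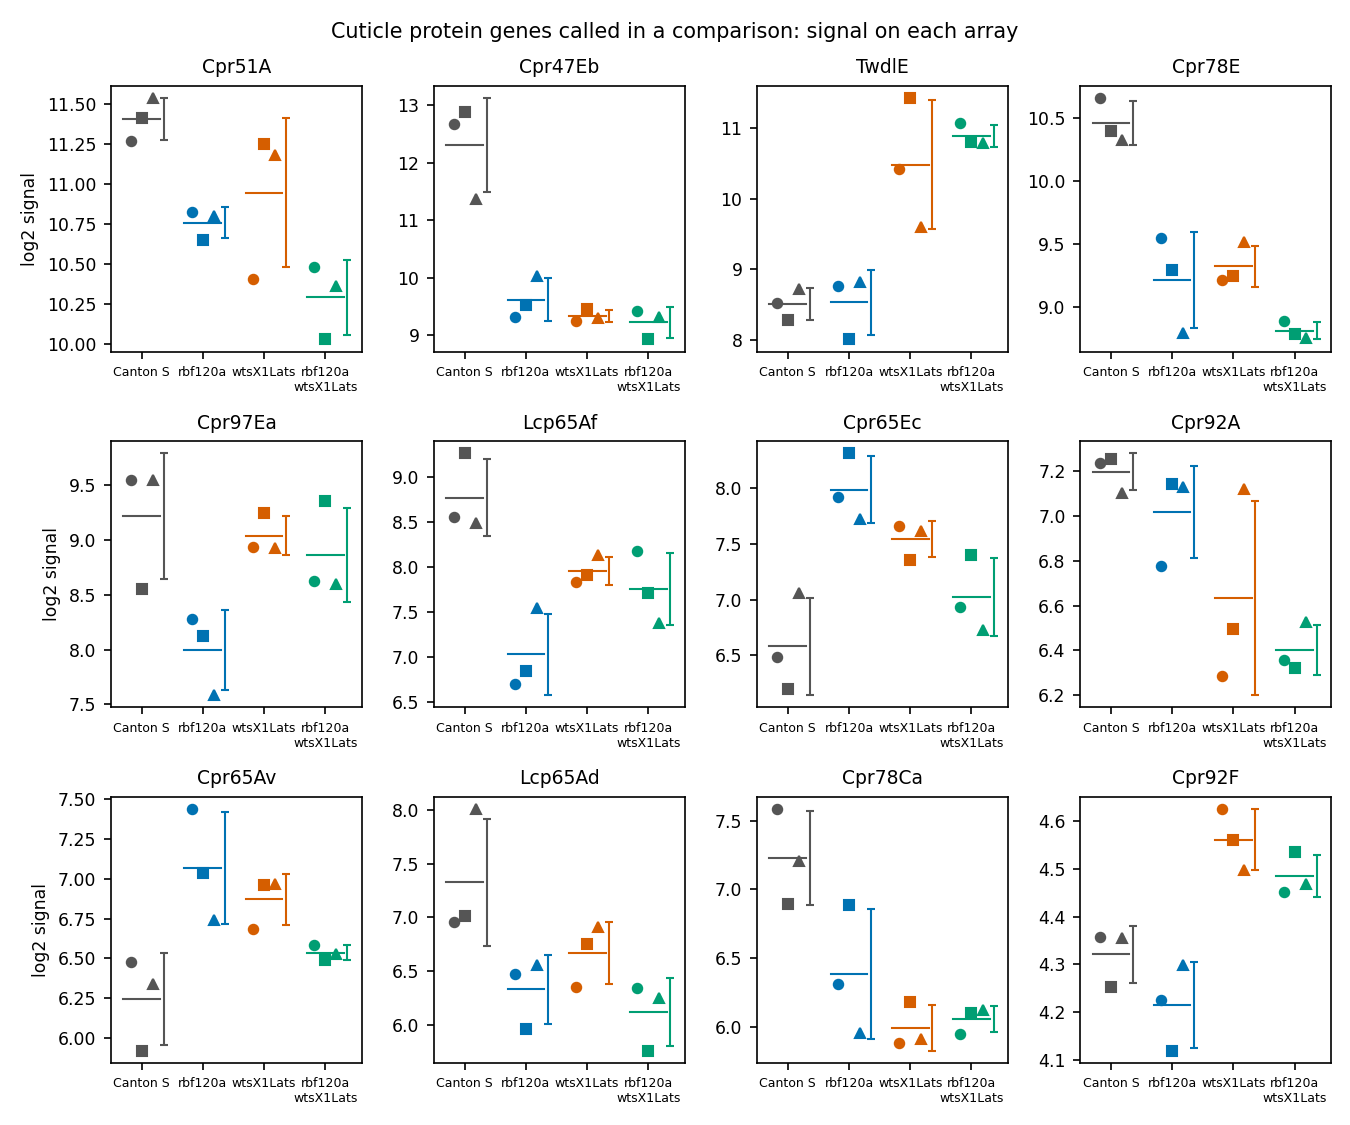
Log2 signal (y axis) of the 12 cuticle protein genes called in a comparison, by genotype; circles, squares and triangles are replicates 1, 2 and 3, horizontal lines are group means and error bars are SDs (n = 3), and each panel has its own y axis. Cpr47Eb and Cpr78E sit below Canton S on all 9 mutant arrays, and TwdlE is high on the 6 arrays with wtsX1Lats.

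Cpr78Ca (CG11310, arm 3L) fell in both groups with the warts allele. It stood at 7.58, 6.90 and 7.20 in Canton S, against 6.31, 6.89 and 5.95 in rbf120a, with wtsX1Lats at 5.88, 6.18 and 5.91 and the double mutant at 5.95, 6.10 and 6.12. All mutant arrays were below those of Canton S, although rbf120a replicate 2 was only just below the lowest of them. It fell by 1.24 ± 0.22 (SE; adjusted p = 0.00716) in wtsX1Lats and changed by -1.17 ± 0.22 (adjusted p = 0.0095) in the double mutant, and the change in rbf120a was -0.85 ± 0.22 (adjusted p = 0.0643). Without Canton S replicate 2 or rbf120a replicate 2 the last passed the test, with -1.01 (adjusted p = 0.041) and -1.10 (adjusted p = 0.0152). The interaction was not called (0.91 ± 0.31, adjusted p = 0.322).

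Cpr51A (CG10112, arm 2R), one of the brightest members, fell in the double mutant. Its signal was 11.27, 11.41 and 11.54 in Canton S, against 10.83, 10.65 and 10.80 in rbf120a, with wtsX1Lats at 10.41, 11.25 and 11.18 and the double mutant at 10.48, 10.03 and 10.36. Every mutant array was below every Canton S array, and wtsX1Lats replicate 1 stood apart from the other arrays of its group. The change in the double mutant was -1.12 ± 0.20 (SE; 2.17-fold lower, adjusted p = 0.00638), and the changes in the single mutants were -0.65 ± 0.20 (adjusted p = 0.121) and -0.46 ± 0.20 (adjusted p = 0.207). Without wtsX1Lats replicate 1, the change in rbf120a had an adjusted p of 0.00766. The interaction was -0.01 ± 0.28, with a 95% interval of -0.62 to 0.60.

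Of the Lcp genes, named for proteins of the larval cuticle, 2 of 7 changed against Canton S, beside 8.4% of all genes. Both came from the 65A group on arm 3L, which holds every measured Lcp gene except Lcp9. Lcp65Af (CG10533) stood at 8.56, 9.27 and 8.49 in Canton S, against 6.70, 6.85 and 7.55 in rbf120a, with wtsX1Lats at 7.83, 7.91 and 8.13 and the double mutant at 8.18, 7.72 and 7.38. All mutant arrays lay below Canton S, and those of rbf120a were on the whole the lowest. It fell by 1.74 ± 0.27 (SE; 3.35-fold, adjusted p = 0.00331) in rbf120a. The changes in wtsX1Lats and the double mutant were -0.81 ± 0.27 (adjusted p = 0.107) and -1.01 ± 0.27 (adjusted p = 0.0507). The last passed the test without rbf120a replicate 3, wtsX1Lats replicate 1 or 3 or double-mutant replicate 1 (adjusted p 0.0356 to 0.0474), and under both other scalings (adjusted p = 0.0375 with array medians centred and 0.038 with quantile normalization). Its interaction was 1.54 ± 0.38 (adjusted p = 0.116).

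Lcp65Ad (CG6955) stood at 6.96, 7.01 and 8.01 in Canton S and at 6.34, 5.76 and 6.25 in the double mutant, where it fell by 1.21 ± 0.28 (SE; adjusted p = 0.0267). It was at 6.47, 5.96 and 6.55 in rbf120a and at 6.35, 6.75 and 6.91 in wtsX1Lats. Canton S was highest throughout, with replicate 3 well above the other arrays. The call ended without Canton S replicate 3 or any 1 of the double-mutant arrays (adjusted p 0.0529 to 0.107). Lcp65Aa (CG7287), another of the brighter Lcp genes, kept between 7.35 and 8.28 on all arrays.

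The remaining 4 called members changed in 1 comparison each, and every one of these calls ended in several fits with 1 array left out. Cpr97Ea (CG6131, arm 3R) fell by 1.22 ± 0.29 (SE; adjusted p = 0.0396) in rbf120a, from 9.22 ± 0.57 (SD, n = 3) to 8.0 ± 0.36. That call ended without Canton S replicate 1 or 3, any rbf120a array, wtsX1Lats replicate 2 or double-mutant replicate 1 or 3 (adjusted p 0.0531 to 0.18). Cpr65Av (CG32405, arm 3L) rose by 0.82 ± 0.19 (SE; adjusted p = 0.0309) in rbf120a, from 6.25 ± 0.29 to 7.07 ± 0.35. Its call ended without Canton S replicate 2 or 3, rbf120a replicate 1 or 2, or double-mutant replicate 2 or 3 (adjusted p 0.0505 to 0.119).

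Cpr92A (CG6240, arm 3R) fell by 0.80 ± 0.19 (SE; adjusted p = 0.031) in the double mutant, from 7.20 ± 0.08 (SD, n = 3) to 6.40 ± 0.11. The call ended without any 1 of the 6 arrays of these groups (adjusted p 0.0548 to 0.109). In wtsX1Lats its change was -0.56 ± 0.19 (adjusted p = 0.112), with replicate 3 at 7.12 beside 6.29 and 6.50, and without that array -0.81 (adjusted p = 0.0069). Cpr92F (CG5494, arm 3R) was among the dimmest members and rose by 0.24 ± 0.06 (adjusted p = 0.0333) in wtsX1Lats, from 4.32 ± 0.06 to 4.56 ± 0.06. Its call ended without any Canton S array, rbf120a replicate 1, wtsX1Lats replicate 1 or 2, or double-mutant replicate 3 (adjusted p 0.0503 to 0.103). Without wtsX1Lats replicate 3, Cpr92A and Cpr92F also passed between the double mutant and rbf120a (-0.62 and 0.27, adjusted p = 0.0476 and 0.0491). Fitting only the 2 groups compared also ended the calls of Cpr65Av (adjusted p = 0.0978), Cpr97Ea (0.0713) and Cpr92F (0.129), and centring the array medians those of Cpr65Av (0.0559), Cpr92A (0.055) and Cpr92F (0.0778). Cpr97Ea was also lost under quantile normalization (adjusted p = 0.0501) and with the replicate block (0.0721).

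Between the double mutant and wtsX1Lats limma called 0 members and 0% of all genes; 3 members and 1033 genes had an unadjusted p under 0.05. One of these comparisons passed without wtsX1Lats replicate 1, that of Cpr51A (-0.93, adjusted p = 0.0329).

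By family, 9 of 66 Cpr genes, 1 of 24 Twdl genes, 2 of 7 Lcp genes and 0 of 3 Ccp84 genes changed in at least 1 comparison with Canton S, beside 8.4% of all genes. Apart from TwdlE, 1 other Tweedle gene reached the median gene, TwdlT (CG5812, arm 3R). It stood at 9.66, 9.32 and 9.64 in Canton S, against 9.35, 9.36 and 9.07 in rbf120a, with wtsX1Lats at 8.43, 8.92 and 9.49 and the double mutant at 8.21, 9.16 and 8.67. The double mutant lay below Canton S without overlap, and wtsX1Lats overlapped it. Its changes were -0.28, -0.59 and -0.86 ± 0.27 (SE; adjusted p = 0.83, 0.233 and 0.0934). Without wtsX1Lats replicate 3, TwdlT passed the test in wtsX1Lats (-0.86, adjusted p = 0.0416) and in the double mutant (adjusted p = 0.0345), and the latter also without wtsX1Lats replicate 1 (adjusted p = 0.0402). TwdlK (CG6460, arm 3R) varied between 6.95 and 7.44 over all arrays. The 3 Ccp84 genes were flat as well: Ccp84Ac stayed within 6.34 to 6.72, Ccp84Ae within 5.75 to 6.55 and Ccp84Ag within 4.21 to 4.51.

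Cuticle protein genes often lie side by side in the genome, and in the gene table from RefSeq, used for order alone, 73 of the 100 members fell into groups of neighbours with at most 2 other genes between them. Arm 3L held 38% of the members and 19.6% of all genes tested. Of the members called against Canton S, Cpr51A, Cpr78E, Cpr92A, Cpr92F and TwdlE lay outside the groups of neighbours. Over all genes, 8.4% were called in at least 1 of these comparisons. A called member was found in 5 of the 16 groups, and 1 group held more than 1: the 65A group of 17 genes, 10 of them measured, with Lcp65Af, Lcp65Ad and Cpr65Av. Of these, the Lcp genes fell and Cpr65Av rose. Of the 7 genes from Cpr47Ea to Cpr47Eg, Cpr47Eb was called and the other 6 had a range under 1. In the Tweedle group on arm 3R, from TwdlM to TwdlQ, 12 of 13 genes were measured, none was called and the widest range over the arrays was 0.568.

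**Figure D3:**
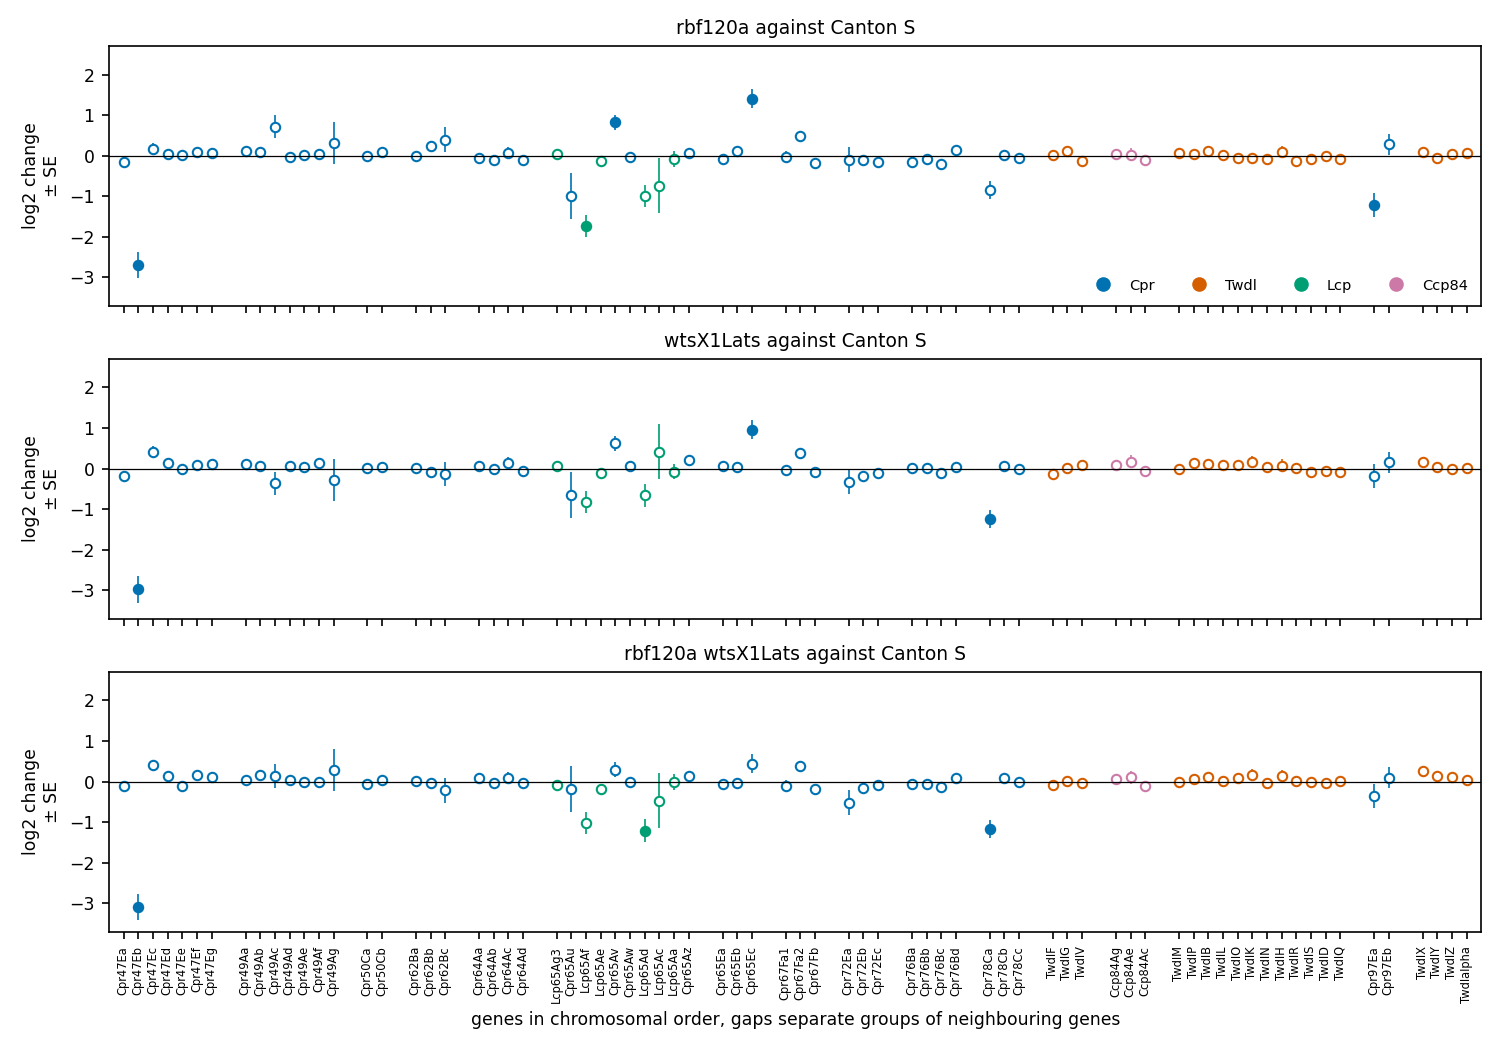
Log2 change against Canton S with its SE (y axis) for the 73 cuticle protein genes that have neighbours of their kind, in chromosomal order (x axis), 1 panel per mutant group, coloured by family; filled points have an adjusted p under 0.05. The fall of Cpr47Eb stands alone among its neighbours, and the 65A group holds both rises and falls.

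A few members varied widely within genotypes. The pooled SD within groups was at least 0.6 for 8 of 100 members and for 1.82% of all genes; this bound, and the members named beyond the 3 most variable ones, were chosen after the values were seen. Lcp9 (CG16914, arm 2R) stood at 9.92 on rbf120a replicate 1 and between 5.14 and 7.57 on the other 11 arrays. Cpr31A (CG33302, arm 2L) was likewise high on that array, at 10.17, and at 6.52 to 8.31 elsewhere. Both genes thus had their highest value on the same array. Lcp9 also varied elsewhere, with 6.09, 7.41 and 7.57 in wtsX1Lats.

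In another set of members the Canton S arrays themselves were far apart. Cpr100A (CG12045, arm 3R) was at 8.01, 10.07 and 5.76 in Canton S replicates 1, 2 and 3, and at 7.90 to 10.68 in the mutant groups. Cpr11B (CG2555, X chromosome) was at 9.77, 11.34 and 7.39 in Canton S and at 8.94 to 10.52 in the mutants. Both genes were highest in replicate 2 and lowest in replicate 3 of the wild type.

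Cpr65Au (6.01, 8.11 and 5.07), Cpr67B (10.17, 10.78 and 8.60) and Lcp65Ac (10.19, 11.43 and 9.06) had the same order in Canton S. Cpr49Ag did not, with 7.41, 5.53 and 6.74. None of the 8 members passed the test in any comparison, and without rbf120a replicate 1 Lcp9 did in wtsX1Lats (1.38, adjusted p = 0.0354). The mean signal of 6 muscle marker genes was 11.00, 12.02 and 10.73 in the same 3 Canton S arrays. It was between 11.34 and 11.67 in rbf120a, 10.09, 10.91 and 12.16 in wtsX1Lats, and 10.72 to 10.89 in the double mutant. Brain and glia markers (9.06, 9.35 and 8.92) and blood cell markers (8.92, 9.22 and 8.32) had the same order in Canton S. Trachea markers did not (7.25, 7.03 and 7.28). Fat body, salivary gland and gut markers were highest in Canton S replicate 3, at 6.255, 6.978 and 5.315. In wtsX1Lats, Lcp65Ac was at 9.02, 11.35 and 11.56, Cpr100A at 8.12, 9.25 and 10.10, and Cpr67B at 9.09, 9.76 and 9.98. Cpr11B (8.94, 10.52 and 9.51) and Cpr65Au (5.66, 5.97 and 5.605) were highest in replicate 2 there, unlike the muscle markers. Whether tissue attached to the discs contributed to these members was not tested.

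**Figure D4:**
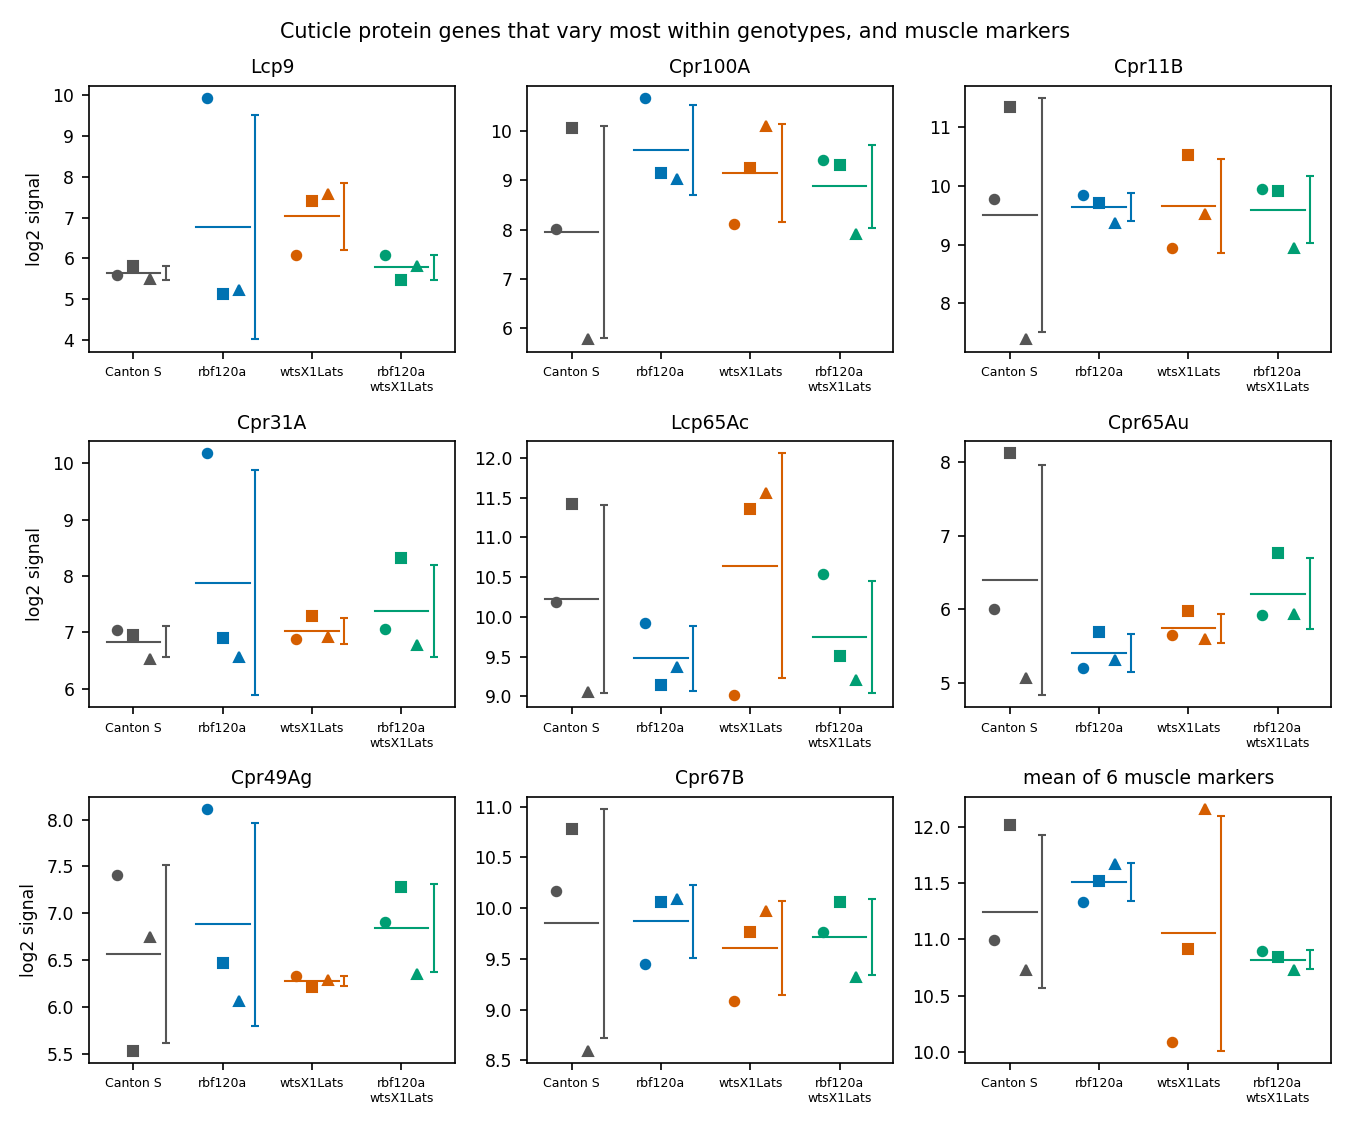
Log2 signal (y axis) of the 8 cuticle protein genes with the widest spread within genotypes and the mean of 6 muscle markers, by genotype; circles, squares and triangles are replicates 1, 2 and 3, lines are means and error bars are SDs (n = 3), with a separate y axis per panel. Lcp9 and Cpr31A are high on rbf120a replicate 1, and Cpr100A and Cpr11B spread widely among the Canton S arrays.

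The corneal lens of the adult eye is a cuticle made by disc-derived cells, and Cpr66D, Cpr72Ec and retinin are among its proteins; the 2 Cpr genes were singled out after their values were seen. Cpr66D (CG32029, arm 3L) was bright, at 10.71, 9.68 and 10.33 in Canton S, against 10.08, 10.60 and 10.14 in rbf120a, with wtsX1Lats at 11.53, 10.97 and 10.21 and the double mutant at 11.18, 11.62 and 11.06. The double-mutant arrays were above all Canton S arrays, and the single mutants overlapped the wild type. None of its changes passed the test (0.03, 0.67 and 1.05 ± 0.32 SE, with adjusted p = 0.994, 0.268 and 0.0872). Cpr72Ec (CG4784, arm 3L) stayed between 4.80 and 5.22 on all arrays.

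retinin itself, which is no member of these families, was at 6.31, 6.33 and 6.35 in Canton S, against 6.79, 7.39 and 6.97 in rbf120a, with wtsX1Lats at 10.51, 8.62 and 8.11 and the double mutant at 9.80, 9.83 and 9.06. As with TwdlE, all 6 arrays with wtsX1Lats were above the other 6. It rose by 2.75 ± 0.47 (SE; 6.72-fold, adjusted p = 0.00552) in wtsX1Lats and by 3.24 ± 0.47 (9.43-fold, adjusted p = 0.00182) in the double mutant, and its change in rbf120a was 0.72 ± 0.47 (adjusted p = 0.651). The double mutant was 2.52 above rbf120a (adjusted p = 0.0366). That call ended in 9 of the 12 fits with 1 array left out (adjusted p up to 0.161).

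Other genes of cuticle formation were examined as lists beside the members. Of 24 measured genes for other structural proteins (27 listed), 1 rose and 1 fell in rbf120a, 2 rose and 1 fell in wtsX1Lats, and 3 rose and 2 fell in the double mutant. Called in either direction were thus 2, 3 and 5 genes, beside 3.51%, 5.61% and 5.49% of all genes. The gene obst-B, which encodes a chitin-binding protein of the Obstructor family, rose in all 3 groups, by 0.81 ± 0.16 (SE), 1.28 ± 0.16 and 1.16 ± 0.16 (adjusted p = 0.0155, 0.000806 and 0.0013). Peritrophin-A fell in all 3 groups, with changes of -0.69, -0.69 and -1.01. In the double mutant Vajk2 rose by 1.21 and the pupal cuticle protein gene Pcp fell by 0.99.

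Among 31 measured genes of chitin synthesis and assembly (36 listed), 1 rose and 2 fell in rbf120a, 1 rose and 4 fell in wtsX1Lats, and 1 rose and 2 fell in the double mutant. Over all genes, the shares rising were 1.79%, 2.28% and 2.23% in these groups and the shares falling 1.71%, 3.33% and 3.26%. The gene that rose was reb, whose product acts with chitin synthase, with changes of 1.45 ± 0.18 (SE), 0.81 ± 0.18 and 0.95 ± 0.18 (adjusted p = 0.000865, 0.0238 and 0.00969). The interaction of reb was -1.31 (adjusted p = 0.041). That call ended in 9 of the 12 fits with 1 array left out (adjusted p up to 0.12), and with the replicate block (0.0726). Idgf1, a chitinase-like growth factor, fell in all 3 groups, with changes of -1.20, -1.55 and -1.59, and so did the hexosaminidase gene Hexo2, with -1.18, -1.07 and -1.01. In wtsX1Lats the chitinase gene Cht6 fell by 1.31 and Idgf3 fell by 1.79. With the mean of a gene's probe sets neither passed the test, at -0.94 (adjusted p = 0.104) and -1.11 (adjusted p = 0.0628).

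Of 18 measured genes of tanning and pigment (22 listed) 0 rose, and 2, 2 and 3 fell in rbf120a, wtsX1Lats and the double mutant, beside 1.71%, 3.33% and 3.26% of all genes. yellow-f, a dopachrome conversion enzyme, fell in all 3, with changes of -1.78 ± 0.22 (SE), -1.67 ± 0.22 and -1.59 ± 0.22 (adjusted p = 0.000698, 0.0011 and 0.0012), and its interaction was 1.86 ± 0.31 (adjusted p = 0.0173; 0.0512 without rbf120a replicate 3). The tan gene t fell likewise, with changes of -1.59, -2.23 and -2.10, and amd fell by 0.63 in the double mutant. The signal of t was 9.40, 10.04 and 8.18 in Canton S and 6.62 to 7.87 on the mutant arrays, with replicate 3 the lowest of Canton S, as for Cpr47Eb and Idgf1.

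None of 9 measured zona pellucida genes of the apical matrix (12 listed) was called in rbf120a, wtsX1Lats or the double mutant. The shares of all genes called in these groups were 3.51%, 5.61% and 5.49%. Of 25 measured genes of the ecdysone cascade and cuticle regulators (34 listed), 0, 1 and 0 were called, beside the same shares. The called gene was dib, a P450 enzyme of ecdysone synthesis, which rose by 1.09 ± 0.24 (SE; adjusted p = 0.0207) in wtsX1Lats. Of the 29 calls in these lists against Canton S, 13 held with any array left out, namely those of yellow-f in all groups, obst-B, retinin, Idgf1 and t in the groups with wtsX1Lats, reb in rbf120a and Peritrophin-A in the double mutant. The other 16 ended without 1 of 1 to 9 arrays, with adjusted p up to 0.201. With only the 2 groups fitted, Idgf1 and t did not pass in rbf120a (adjusted p = 0.0809 and 0.0929) or wtsX1Lats (0.0514 for both). Peritrophin-A did not pass in these groups either (0.0518 and 0.195). In wtsX1Lats that fit also ended the calls of reb (0.0856), Hexo2 (0.0874), Cht6 (0.112), Idgf3 (0.142) and dib (0.0748). In the double mutant it ended those of Pcp (0.0691), Vajk2 (0.107) and amd (0.0784), and it added Cht6 (0.0281) and Idgf3 (0.0454).

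**Figure D5:**
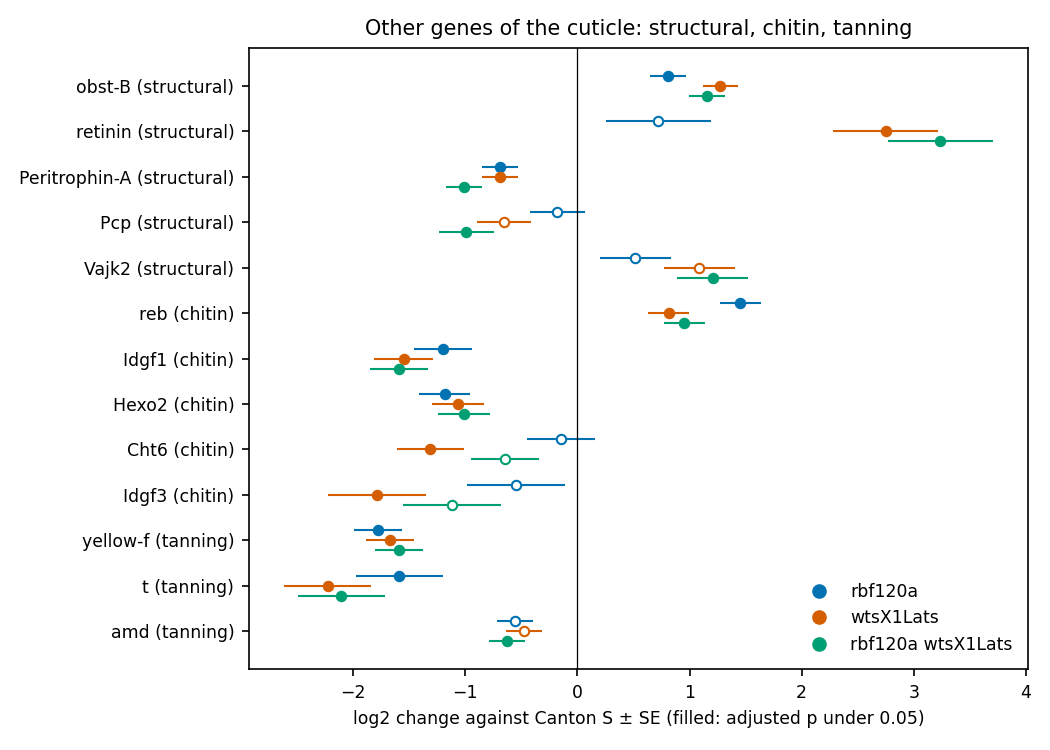
Log2 change against Canton S with its SE (x axis) for the 13 genes called among other structural, chitin and tanning genes (y axis), coloured by mutant group; filled points have an adjusted p under 0.05. yellow-f, t, Idgf1 and Hexo2 lie below 0 and obst-B and reb above 0 in all 3 groups, and retinin is far to the right in the groups with wtsX1Lats.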

How the data were processed

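RNA was extracted with Trizol, purified with RNeasy columns and converted to biotin-labelled cRNA, per the labels' protocols. The authors deposited 1 table of log2 values for 18952 probe sets; the scale follows from the values, between 3.55 and 14.53, and how probes were summarised and normalized was not given in the sources used here. No detection calls were used here, so a dim signal cannot be separated from background, and precision is limited by the number of arrays.

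Of the probe sets, 13647 were listed with 1 gene and 402 with several; 13544 matched the RefSeq gene table of assembly Release 6 plus ISO1 MT. It was used for names, chromosomes and gene order, because the files name no genome build. Control probe sets were left out of the tests. The probe set with the highest average signal stood for its gene; 2 members and 1094 of all genes had more than 1.

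Tests used limma 3.58.1 under R 4.3.3 (lmFit, then eBayes with trend), fitting the 4 group means to all 12 arrays at once with 8 residual degrees of freedom. Benjamini-Hochberg adjustment of the p-values ran over 11982 genes, and an adjusted p under 0.05 counted as called. For the interaction, the rbf120a change in Canton S was subtracted from the one in wtsX1Lats. Errors are SDs over 3 arrays for levels and standard errors of the fit for changes; intervals are at 95%.

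Genes were named by rule: every member called, the 3 brightest members of each family, the 3 members with the widest spread within groups, and up to 6 called genes per other list. Members and lists were chosen with earlier results of these data known. The labels name no batch, and the groups were compared without a block. Deviations from group means correlated between -0.298 and 0.311 for same-numbered arrays (6 of 18 pairs over 0.1). For arrays of different numbers they correlated between -0.339 and 0.459 (13 of 36 pairs). Deviations within a group of 3 are tied to each other, so these values cannot show whether the replicate numbers pair the samples. The highest correlation between 2 arrays of a group was 0.997, and no array was counted as a duplicate. Alternatives covered the fit, the scaling, the filter on dim genes, the choice of probe set, array weights, the replicate block and leaving out each array.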

Additional observations from a re-analysis of the deposited data

Results flagged for a closer look

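For 2 cuticle protein genes the effect of rbf120a differed between the backgrounds by the test of the interaction in limma, with adjusted p under 0.05 over all genes. For Cpr47Eb the rbf120a change was 2.58 higher on the log2 scale in the wtsX1Lats background than in Canton S. For Cpr65Ec the same difference was -1.93. Both calls ended without Canton S replicate 1, rbf120a replicate 1 or 2, or double-mutant replicate 1 or 3 (adjusted p up to 0.0714 and 0.0695), and with the replicate number as a block (adjusted p = 0.0508 and 0.0515).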

How the results depend on the processing

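No value of the members changed sign with a call. The 6 calls of Cpr47Eb and Cpr78E against Canton S held under every alternative run. With any 1 array left out, the members called numbered 4 to 7 in rbf120a, 4 to 10 in wtsX1Lats (10 without wtsX1Lats replicate 3) and 5 to 10 in the double mutant, each against Canton S, 0 to 3 between the double mutant and rbf120a, 0 to 1 between the double mutant and wtsX1Lats, and 0 to 2 for the interaction. Over all genes the counts in the same order ran over 197 to 632, 297 to 1596, 297 to 1080, 29 to 159, 0 to 20 and 41 to 121. The median changes of the members ranged over -0.05 to 0.02, -0.01 to 0.05, -0.02 to 0.03, 0.00 to 0.02, -0.04 to -0.01 and -0.035 to 0.0472. With array weights, whose default estimate stopped before it converged, 27 members were called in rbf120a and 30 in the double mutant against Canton S and 6 between the double mutant and rbf120a (over all genes 3213, 4463 and 589, and 253 interactions, beside 420, 658, 81 and 107 without weights). Weights estimated gene by gene, chosen after seeing the data, gave 14, 13, 15, 6, 1 and 5 members in the 6 comparisons, and 1475, 2031, 2434, 498, 74 and 397 of all genes. Fitting only the groups compared gave 3 members in wtsX1Lats and 4 between the double mutant and rbf120a, with 181 and 412 of all genes, and 1076 of all genes in the double mutant. Testing only genes at or above the median gene left 3 in wtsX1Lats and 1 interaction, since dim members drop out; over all genes 235 passed in rbf120a, 425 in the double mutant, 42 between the double mutant and rbf120a, and 55 interactions. With the replicate number as a block, 0 interactions were called (Cpr47Eb adjusted p = 0.0508, Cpr65Ec 0.0515), and 6, 5 and 7 members were called against Canton S. Centring the array medians shifts all genes alike, to a median of all genes of 0.105 in wtsX1Lats and 0.115 between the double mutant and rbf120a, and turned the split of all genes called in wtsX1Lats from 273 higher and 399 lower to 381 and 297, and in the double mutant from 267 and 391 to 346 and 298. It moved the members' median to 0.11 in wtsX1Lats, 0.0813 in the double mutant and 0.12 between the double mutant and rbf120a. Over members at or above the median gene it was -0.19 in wtsX1Lats, -0.12 in the double mutant, -0.16 between the double mutant and rbf120a, -0.14 between the double mutant and wtsX1Lats, and 0.0552 for the interaction. Where no construction is named, the cause was not tested. For 84 of 100 members the signal was below the median gene, and without detection calls a lack of change there says little about their RNA.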
